A study of Mus musculus with 21 samples.

Results

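Vitamin D receptor (VDR) binding in colon was compared with VDR binding in small intestinal (SI) villus, using the MACS2 peak lists of 4 Colon and 4 Villi VDR ChIP-seq samples among the 21 samples of the series, together with the pooled list of each side. Peaks of the 8 lists that shared at least 1 bp were merged into 20677 sites. A site was named colon-side when 3 or 4 colon lists and 0 villus lists called it, villus-side when 3 or 4 villus lists and 0 colon lists called it, and shared when 3 or 4 lists of each side called it. This gave 926 colon-side sites, which are 4.48% of all sites, 320 villus-side sites, which are 1.55%, and 938 shared sites. The remaining 18493 sites were called too rarely or too unevenly for any of these classes.

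All mice were C57BL/6J, were fed chow, and had received 10 ng/g 1,25(OH)2D3, the active form of vitamin D, by injection 1 h before collection. The labels give them as 4 to 6 weeks old, whereas the study's methods give an older age. Colon samples were the scraped epithelium of the entire colon, so crypts and surface cells entered one sample. Villus samples were EDTA-released villi of the proximal SI, retained on a filter and labelled duodenum villi, so colon and villus differ in cell composition as well as in position along the gut. Chromatin was precipitated with mixed anti-VDR antibodies. The ATAC-seq samples used further on, 3 Colon and 3 Villi samples aged 90 days, came from untreated mice according to the methods, although the labels repeat the dosing protocol for them. No vehicle-treated ChIP-seq sample was analysed here, and MACS2 was run without an input control. The presence of a site therefore tells where signal rose above the local background of the same sample after treatment, and fewer cells with a bound site cannot be told apart from weaker binding in each cell.

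VDR is a nuclear receptor that, with 1,25(OH)2D3, pairs with a retinoid X receptor and binds DNA at direct repeats of a hexamer separated by a spacer of 3 bases (DR3). In the intestine it is best known for inducing genes of calcium uptake and of vitamin D breakdown, and it is expressed along the whole epithelium. The villus epithelium digests and absorbs sugars, peptides and fats, whereas the colon absorbs water and salt under the influence of aldosterone and secretes mucus. GATA4 marks the proximal SI, and the CDX factors are found in SI and colon.

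The sequences below are stretches of mm9 at sites with motif letters whose share differed between the classes, each read on the plus strand with 20 bases on either side of the motif, which is in capitals. The DR3 stretches, none in an exon, are those of 3 villus-side sites, of colon-side sites among the 12 strongest or at genes with 3 or more such sites, and of shared sites at genes of the lists described further on. The DR3 letters were at 2.16% of all sites within 100 bp of the summit.

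Nr3c2, colon-side (chr8:79007385-79007439): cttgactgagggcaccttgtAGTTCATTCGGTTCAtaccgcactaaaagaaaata
Atp2b1, colon-side (chr10:98290392-98290446): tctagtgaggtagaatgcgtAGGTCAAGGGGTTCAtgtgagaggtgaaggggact
Klf13, colon-side (chr7:70987619-70987673): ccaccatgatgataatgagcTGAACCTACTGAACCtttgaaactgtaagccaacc
Sox9, shared (chr11:112701212-112701266): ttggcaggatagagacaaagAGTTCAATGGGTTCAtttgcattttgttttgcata
Bach1, shared (chr16:87681627-87681681): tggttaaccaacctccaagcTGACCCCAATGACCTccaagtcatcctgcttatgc
Cck, shared (chr9:121378262-121378316): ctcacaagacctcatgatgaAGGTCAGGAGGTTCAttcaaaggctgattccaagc
Adamtsl5, villus-side (chr10:79804269-79804323): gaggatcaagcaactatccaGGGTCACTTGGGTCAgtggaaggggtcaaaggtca
Itch, villus-side (chr2:154941253-154941307): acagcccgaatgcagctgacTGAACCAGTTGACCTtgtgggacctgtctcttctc
St3gal5, villus-side (chr6:72112283-72112337): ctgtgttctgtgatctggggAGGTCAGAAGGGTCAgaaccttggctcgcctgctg

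The GATA letters (AGATAA on either strand) were at 6.61% of all sites and the CDX letters (TTTATGG on either strand) at 2.23%. The GATA stretches come from the strongest villus-side sites, and the CDX stretches from a colon-side cluster upstream of Klf6, a zinc-finger transcription factor.

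Med13l, villus-side, GATA (chr5:119523003-119523048): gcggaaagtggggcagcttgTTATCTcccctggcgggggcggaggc
Maf, villus-side, GATA (chr8:118063993-118064038): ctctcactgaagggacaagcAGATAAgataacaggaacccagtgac
Myo15, villus-side, GATA (chr11:60299779-60299824): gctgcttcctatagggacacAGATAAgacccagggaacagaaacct
Treml4, villus-side, GATA (chr17:48411747-48411792): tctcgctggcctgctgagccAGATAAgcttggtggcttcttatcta
Klf6, colon-side, CDX (chr13:5544140-5544186): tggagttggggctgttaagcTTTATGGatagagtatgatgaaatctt
Klf6, colon-side, CDX (chr13:5565923-5565969): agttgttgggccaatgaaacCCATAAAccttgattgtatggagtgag

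The lists differed widely in size within each side. Colon samples 1 to 4 called 1476, 4602, 5686 and 9591 sites, and villus samples 1 to 4 called 9800, 5399, 1217 and 3579. The ranges overlapped throughout, and the difference in the mean log2 number of sites was 0.171 (two-sided exact permutation test, p = 0.771, where 4 samples against 4 cannot give less than 0.0286). Colon 1 and villus 3 were the sparsest lists, although villus 3 had the most sequenced fragments of the 8 (17970894, against 10588783 to 17731640 in the others). Only 272 of the 926 colon-side sites were called in colon 1, against 907, 898 and 854 in colon 2, 3 and 4. Of the 320 villus-side sites, villus 3 called 136, against 317, 302 and 299 in villus 1, 2 and 4.

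**Figure D1:**
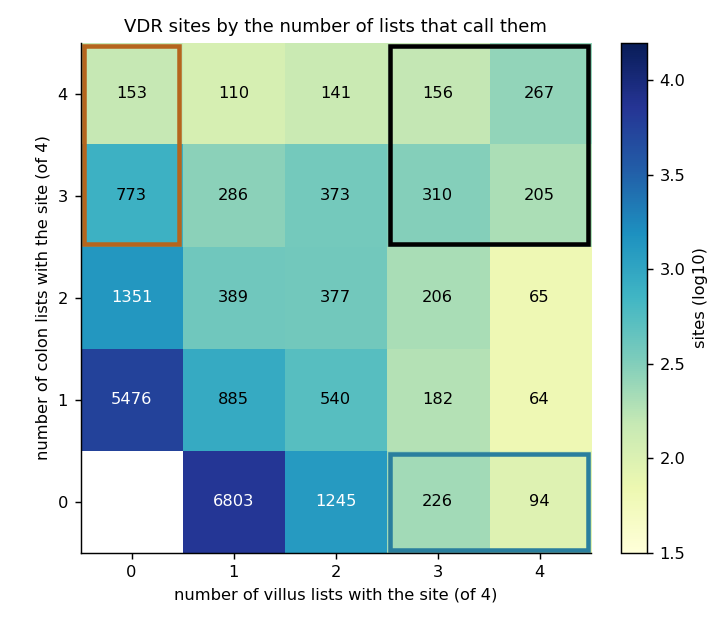
Number of VDR sites by how many of the 4 colon lists (vertical axis) and how many of the 4 villus lists (horizontal axis) called them, colored on a log10 scale, with the colon-side, villus-side and shared classes outlined in brown, blue and black. Sites of a single list dominate (5476 in colon and 6803 in villus), 267 sites were called in all 8 lists, 153 in 4 colon lists and 0 villus lists, and 94 in 4 villus lists and 0 colon lists.

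The greater number of colon-side than villus-side sites depended on the depth of calling. When every list was held to at most its 1500 strongest peaks, the classes drawn anew held 289 colon-side and 276 villus-side sites. Colon 1 and villus 3, with fewer peaks than this limit, kept all of their 1476 and 1217. With 1200 peaks there were 230 and 245. Without both sparsest lists, where 3 of 3 lists had to call a site, the counts were 818 and 278. With 1 list of a side left out, a site of that side also needed 3 of 3 lists. Leaving out colon 2, 3 or 4, so that sparse colon 1 had to call each site, gave 171, 180 and 225 colon-side sites. Leaving out villus 1, 2 or 4, so that sparse villus 3 had to, gave 97, 112 and 112 villus-side sites. Without colon 1 there were 807 colon-side sites, and without villus 3 there were 278 villus-side sites. Without colon 4, the largest colon list, the villus-side count rose to 510. Pairs of colon lists shared a median of 26.8% of their combined sites (range 9.69 to 40.3%, 6 pairs), pairs of villus lists 21.6% (8.99 to 30.2%, 6 pairs) and pairs across sides 16.6% (6.62 to 23.0%, 16 pairs). Absence from single lists was not absence from the merged data, since 234 of the 926 colon-side sites (25.3%) overlapped a peak of the pooled villus list and 142 of the 320 villus-side sites (44.4%) one of the pooled colon list.

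Of the 12 strongest colon-side sites, ranked by −log10 q in the pooled colon list, all but that of Rorb lay outside promoters. The first, at −40.1 kb from the TSS of Tagap, a GTPase-activating protein of T cells, had fold enrichments (pileup at the summit over the local background) of 10.5, 24.2, 19.1 and 21.9 in colon 1 to 4. Colon 1 gave the lowest value, as it did at all 12 of these sites, and no villus list called it. At −416 kb from Nr3c2, the mineralocorticoid receptor through which aldosterone acts, the fold enrichments were 12.3, 22.1, 19.7 and 20.3, and the DR3 printed above lies within 100 bp of the summit.

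Atp2b1 encodes the plasma membrane calcium pump that moves calcium out of the enterocyte on the basolateral side. Its strongest colon-side site, at −87.4 kb with the DR3 shown above, had fold enrichments of 10.8, 16.7, 18.3 and 15.6 in colon. Another, at −176 kb, had 6.10, 12.1, 12.1 and 12.6. Weaker colon-side sites at −230.3 kb and −263 kb were called in colon 2, 3 and 4 with fold enrichments of 4.27 to 10.7. Between them, a site at −238 kb was called in all 8 lists, with 7.0, 12.4, 7.51 and 11.5 in colon and 15.8, 9.06, 7.23 and 11.7 in villus. The ranges overlapped at this shared site, and of the 4 colon-side sites that at −263 kb also had a peak in the pooled villus list (fold enrichment 5.21).

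The other strongest colon-side sites were nearest to Gda (guanine deaminase, intron), Azin1 (an inhibitor of antizyme, which controls polyamine synthesis, 84.5 kb from the TSS), Zp1 (−5.91 kb), Lmx1b (−86.8 kb), Rorb (promoter), Ank (a pyrophosphate transporter, intron), Fam129b (intron), Ddah1 (an enzyme that degrades methylated arginines, intron) and Itpr1 (a receptor that releases calcium from the endoplasmic reticulum, −8.47 kb). Their fold enrichments ranged from 5.96 to 12.9 in colon 1 and from 9.16 to 23.7 in colon 2, 3 and 4. Of all 12 sites, only that of Gda overlapped a peak of the pooled villus list (fold enrichment 2.98, against 16.1 in the pooled colon list).

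The strongest villus-side sites had higher fold enrichments. The first lay 512 kb from the TSS of Med13l, a subunit of the Mediator complex, with 31.6, 33.1, 19.1 and 19.6 in villus 1 to 4. Next came intronic sites of Treml4 (29.8, 29.9, 19.6 and 23.2) and Myo15 (32.4, 29.4, 18.6 and 20.1). Villus 1 and 2 were higher than villus 3 and 4 at each of these, and no colon list called them. A site 167 kb from Maf, a basic leucine zipper factor, had 31.7, 26.5, 18.7 and 19.0. Maf was also nearest to a colon-side site, 182 kb away, with 7.18, 4.87 and 5.57 in colon 2, 3 and 4.

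At 12.3 kb from the TSS of Ecel1, a site had 28.1, 32.6, 14.6 and 16.5. The genes Akp3 and Alpi, which encode intestinal alkaline phosphatases of the brush border, have TSSs from which the same summit lies at 17.7 and −41.1 kb. The remaining sites were nearest to Arid1b (a chromatin remodeling subunit, intron), Slc14a1 (a urea transporter, intron), Pwwp2b, Snx10, 4933407C03Rik, Anxa3 and Tbc1d1 (a regulator of glucose transporter traffic), with fold enrichments of 6.82 to 32.8. The GATA letters were present at 5 of the 12 (Med13l, Treml4, Myo15, Maf and 4933407C03Rik), against 0 of the 12 strongest colon-side sites, a small count that describes these sites. The site near Snx10 was the only one of the 12 with a peak in the pooled colon list, where its fold enrichment was 5.79. By nearest gene, Med13l, Snx10 and 4933407C03Rik each also had 2 colon-side sites elsewhere.

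**Figure D2:**
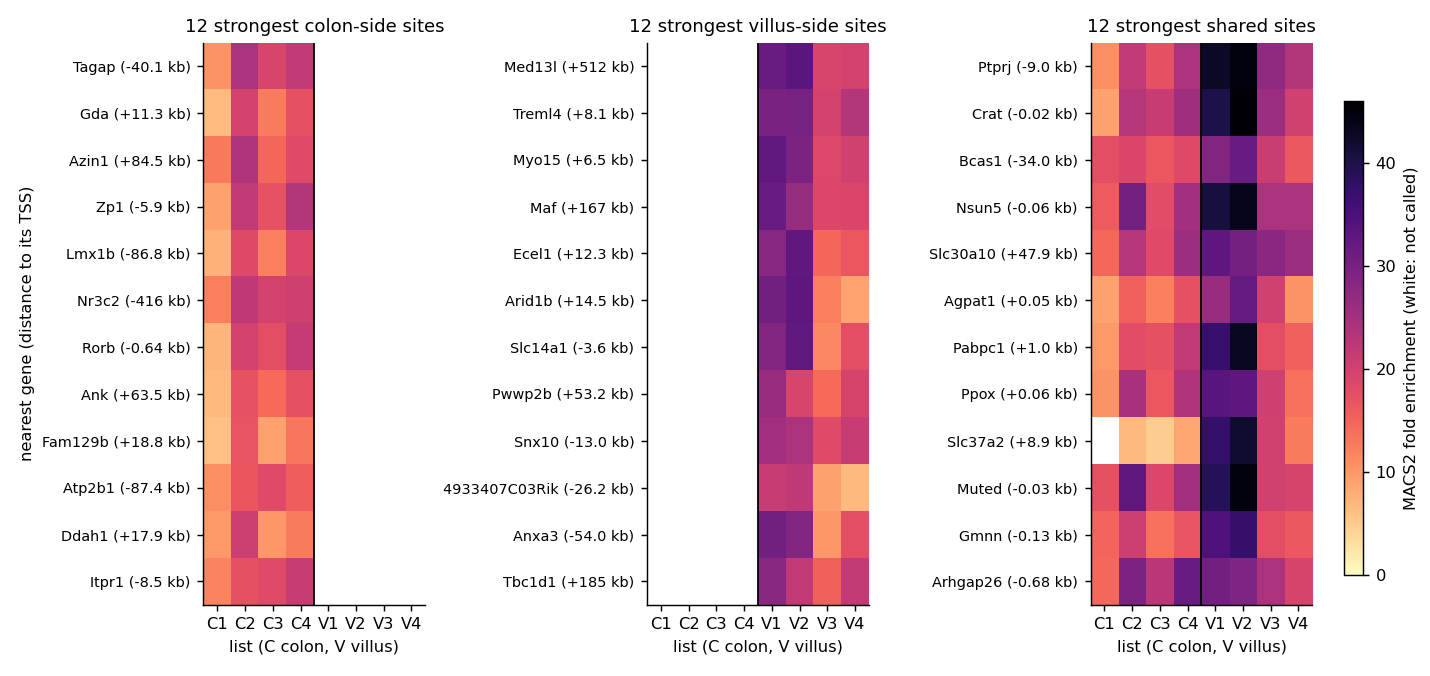
MACS2 fold enrichment in each colon list (C1 to C4) and villus list (V1 to V4) at the 12 strongest colon-side, villus-side and shared sites, named by the nearest gene with the distance to its TSS; white marks a list that did not call the site. Colon-side sites reach 24.2 in colon and villus-side sites 33.1 in villus, and the shared site of Slc37a2 is pale in colon (4.83 to 8.49) and dark in villus (12.6 to 41.9). The values are not scaled between lists.

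The strongest shared sites were called in all 8 lists except that of Slc37a2. They were nearest to Ptprj (a receptor tyrosine phosphatase), Crat (carnitine acetyltransferase), Bcas1, Nsun5, Slc30a10 (a manganese exporter), Agpat1 (an acyltransferase of phospholipid and triglyceride synthesis), Pabpc1, Ppox (heme synthesis), Slc37a2, Muted, Gmnn (an inhibitor of DNA replication licensing) and Arhgap26. The summit near Bcas1 lies 35.3 kb from the TSS of Cyp24a1, the enzyme that degrades 1,25(OH)2D3, and had fold enrichments of 17.6, 18.9, 16.5 and 18.5 in colon and 28.6, 31.8, 20.9 and 16.2 in villus. The ranges overlapped, from 16.5 to 18.9 in colon and from 16.2 to 31.8 in villus.

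Slc37a2, a sugar phosphate transporter, and Ptges, the prostaglandin E synthase, are genes named in the study, so their values are a description. The paper reports an intronic Slc37a2 site of the SI as absent in colon. For Ptges it reports binding that is lower in the SI, or found in colon only. It compared binding affinity between compartments, whereas the classes here rest on calls per list. By those calls, an intronic site of each gene was shared. The intronic Slc37a2 site had 6.73, 4.83 and 8.49 in colon 2, 3 and 4, was not called in colon 1, and had 37.5, 41.9, 20.1 and 12.6 in villus. All villus values exceeded all colon values. The intronic Ptges site had 14.8, 13.8 and 14.6 in colon 2, 3 and 4, was not called in colon 1, and had 11.7, 6.24, 7.0 and 8.77 in villus. Here every called colon value exceeded every villus value. A further Ptges site, 4.42 kb from the TSS, was colon-side with 6.08, 4.32 and 5.35 in colon 2, 3 and 4.

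At the level of genes, a protein-coding gene counted as bound in a sample when a summit within 10 kb had that gene's TSS as its nearest. Different sites could serve in different lists, so a gene could take a class without any site of that class. Of 7074 genes bound in at least 1 of the 8 lists, 254 were colon-side (3.59%), 135 were villus-side (1.91%) and 650 were shared (9.19%). The villus-side share was 36.8% of bound genes in the lipid list and 26.3% in the digestion list, and the highest colon-side share of any list was 13.3%, in the TGF-beta and SMAD list (2 of 15). Lists were read as counts beside these shares of all bound genes, with no test.

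Among genes of lipid uptake and chylomicron assembly, 7 of the 19 bound genes were villus-side, 0 were colon-side and 1, Acsl5, was shared. The 7 were Apoa1, Apoa4 and Apob, the apolipoproteins of chylomicrons, Fabp1, a fatty acid carrier, Dgat1 and Dgat2, which complete triglyceride synthesis, and Abcg8, a sterol exporter. Villus samples 1 to 4 had fold enrichments of 4.82, 4.76, 4.56 and 3.88 at the Apoa1 promoter site and of 5.37, 4.21, 4.68 and 3.83 at the Apoa4 site. Abcg8 was stronger, with 19.6, 19.8, 11 and 6.19 in its intron. No colon list called any of these 3 sites.

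For the brush border enzymes and transporters of sugar and peptide digestion, 5 of 19 bound genes were villus-side, 0 were colon-side and 2 (Treh and Khk) were shared. The villus-side genes were Lct (lactase), Slc2a2 and Slc2a5 (the glucose and fructose transporters GLUT2 and GLUT5), Slc15a1 (the peptide transporter PEPT1) and Akp3. No villus-side site was nearest to Lct or Slc2a5. The Slc15a1 promoter site had fold enrichments of 6.44, 5.89, 3.83 and 4.30 in villus, and the intronic Akp3 site had 4.46, 3.98, 3.07 and 3.27. Mgam (maltase-glucoamylase) was the sole gene nearest to 3 or more villus-side sites, which lay 54.9, 79.9 and 115 kb into the gene.

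Sites near these genes were wider and weaker than most. The 8 villus-side sites of the lipid list had a median width of 1453 bp and a median fold enrichment of 3.95 in the pooled villus list. The 10 of the digestion list had 737 bp and 4.27, against 505 bp and 8.28 over all 320 villus-side sites. The Apoa4 site spanned 3199 bp, the Akp3 site 2763 bp and the Apoa1 site 2572 bp. In all, 30 villus-side sites were 1000 bp or wider, with a median fold enrichment of 3.89, and so were 40 colon-side sites, with one of 2.90. The part of transcription or of open chromatin in such broad signal was not tested. With 1500 peaks per list, the lipid list had 4 villus-side genes and the digestion list 2, and without both sparsest lists there were 6 and 5.

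Transcription factors of the SI gave 1 villus-side gene of 12 bound, Creb3l3 (a membrane-bound factor of fat metabolism), with fold enrichments of 2.93, 4.50 and 3.00 in villus 1, 2 and 4. By nearest gene at any distance, this list held 71 sites, of which 6 at 5 genes were colon-side (among them Gata6, at −115 and −92.0 kb) and 2 villus-side, where 4.48% and 1.55% of all sites were. Among xenobiotic genes, Cyp3a11 and Cyp3a25 were villus-side, Gsta4 was colon-side and 7 of 25 bound genes were shared, beside 9.19% of all bound genes. No villus-side site was nearest to Cyp3a11 or Cyp3a25.

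On the colon side, the list of colonic water and ion transport had 2 colon-side genes (Car1 and Aqp8) and 1 villus-side gene (Guca2b) of 26 bound. No colon-side site was nearest to Aqp8. Car1, a carbonic anhydrase abundant in colon, was nearest to 5 colon-side sites within 13.4 kb. The site 1.09 kb from the TSS had fold enrichments of 2.24, 2.5, 2.59 and 3.5 in colon 1 to 4, and all 5 sites lay between 1.92 and 3.5. These values were low throughout, although each site was called in 3 or 4 colon lists and in 0 villus lists. Guca2b, which encodes uroguanylin, had fold enrichments of 4.10, 4.76, 3.80 and 3.55 in villus at an intronic summit of a site 2460 bp wide.

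By nearest gene at any distance, 12 of the 137 sites of this list were colon-side and 3 villus-side, beside 4.48% and 1.55% of all sites. Slc26a3, the chloride-bicarbonate exchanger of the colon surface, had an intronic site with 5.30, 7.86, 6.62 and 10.3 in colon. Slc9a3, the apical sodium-proton exchanger, had one at −18.9 kb, called in colon 2, 3 and 4 with 4.64, 5.32 and 8.03. Nedd4l, a ubiquitin ligase that acts on the epithelial sodium channel, had colon-side sites in introns with 5.13 to 12.1.

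Of the 95 sites of the list of colon identity factors, 13 at 9 genes were colon-side, 10 of them beyond 10 kb of a TSS, and 0 were villus-side, beside 4.48% and 1.55% of all sites. Within 10 kb, Nr3c2 was colon-side (1 of 15 bound genes), and Cdx2, Klf4 and Foxp1 were shared. The 3 colon-side sites of Nr3c2 lay at −416, −281 and 20.8 kb, so its call within 10 kb came from different sites in different lists. That at 20.8 kb had a higher fold enrichment in the pooled villus list (6.61) than in the pooled colon list (4.64). Klf5, a factor of proliferating epithelium, had sites 95.2 and 195 kb away with 5.14 to 9.10. With the TSS limit at 2 or 50 kb, 0 genes of this list were colon-side, and with −log10 q of at least 5 there were 3.

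Genes nearest to 3 or more colon-side sites were Car1 (5), Abcb1a, Atp2b1, Slc40a1 and Sprr2b (4 each), and Klf13, Klf6, Mecom, Nr3c2 and S100a6 (3 each). Abcb1a, a drug efflux pump, had sites from −9.01 to 52.0 kb with fold enrichments of 2.55 to 7.36. Slc40a1 encodes ferroportin, the basolateral iron exporter, and its sites, between 2.12 and 48.6 kb from the TSS, were called in colon 2, 3 and 4 with 2.74 to 7.29. Those at 20.1 and 21.2 kb also had peaks in the pooled villus list, with 3.00 and 5.10 there against 3.20 and 3.79 in the pooled colon list. In the iron and heme list it was 1 of 2 colon-side genes of 18 bound, beside Tfrc, the transferrin receptor, whereas Fth1, Ftl1, Ppox and Mafg were shared. At Sprr2b, a small proline-rich protein of the epithelial surface, the site 2.54 kb from the TSS had 22.6, 18.7 and 20.4 in colon 1, 2 and 3 and was not called in colon 4. The Klf6 sites lay at −317, −295 and −285 kb with fold enrichments of 5.32 to 15.4.

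Other lists had few genes on either side. Pla2g5, a secreted phospholipase, was colon-side in the prostaglandin list (1 of 10 bound), with an intronic site of 8.62, 15.4, 15.4 and 13.8 in colon. In the TGF-beta and SMAD list, Gdf15, a secreted stress cytokine of the TGF-beta family, and Smad7, an inhibitor of TGF-beta receptors, were colon-side, and Ski, a SMAD corepressor, was villus-side (17.6, 16.3, 10.6 and 16.5 in villus). Fosl1, an AP-1 subunit, was colon-side with 8.24, 7.53, 4.93 and 11.5. Muc2, the gel-forming mucin, was a colon-side gene, though no colon-side site was nearest to it. B3gnt6, an enzyme that extends mucin glycans, was a villus-side gene, with 15.6, 11.8 and 12.0 in villus 1, 2 and 4. Weaker peaks of the other pooled list lay at some of these sites, with fold enrichments in the pooled colon list of 4.49 at Abcg8, 2.87 at Dgat2, 4.96 at B3gnt6 and 4.11 at Ski. In the pooled villus list they were 3.87 at Gdf15, 3.87 at Slc9a3, 5.01 at the Klf5 site 195 kb away, and 3.48 and 3.08 at the Smad7 sites.

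Of 24 bound genes of the growth arrest and cell cycle list, 11 were shared, beside 9.19% of all bound genes, and 0 were colon-side or villus-side. Cdkn1a (p21), Btg1, Gadd45a and Tob1 were among the 11. These counts were not stable. With 1500 peaks per list, 3 of 12 bound genes were shared and 1 was villus-side. With the TSS within 2 kb, 4 of 22 were shared, 1 was colon-side and 1 villus-side. Of the 122 sites of this list at any distance, 5 were colon-side and 3 villus-side, beside 4.48% and 1.55% of all sites. The promoter site of Cdkn2b was colon-side (4.38, 4.23 and 7.74 in colon 2, 3 and 4). That of Ccng2 was villus-side (6.14, 6.26 and 3.95 in villus 1, 2 and 4). In the vitamin D and calcium list, 1 of 13 bound genes was shared (Cldn15) and 0 were colon-side or villus-side. At any distance this list held 64 sites, of which 5 were colon-side and 0 villus-side, beside 4.48% and 1.55% of all sites. Of the colon-side sites, 4 were at Atp2b1 and the other at −97.0 kb from Slc8a1, a sodium-calcium exchanger (11.3, 7.45 and 9.13 in colon 2, 3 and 4). A further 4 sites were shared, nearest to Vdr, Atp2b1 and Slc30a10 and none to Cldn15.

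**Figure D3:**
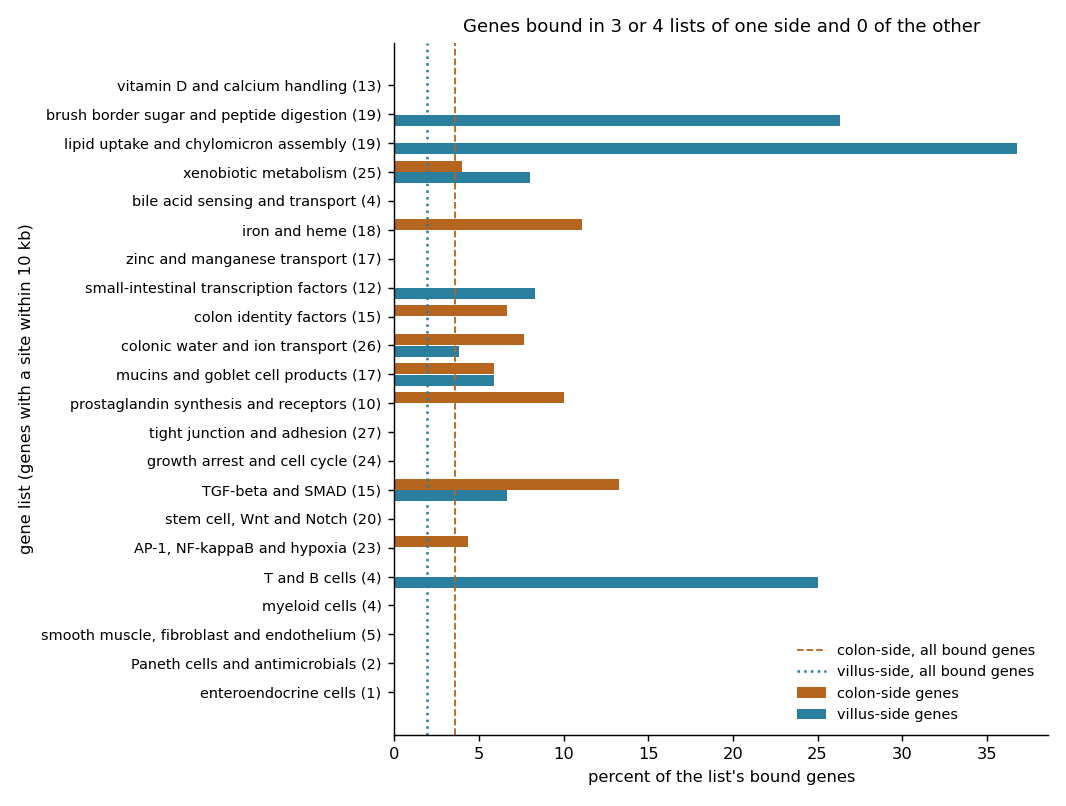
Share of each list's bound genes (number in brackets) that were colon-side (brown bars) or villus-side (blue bars), with the shares over all 7074 bound genes as vertical lines (3.59% and 1.91%). The lipid list (7 of 19) and the digestion list (5 of 19) reach furthest on the villus side, and lists with few bound genes, such as T and B cells (1 of 4), rest on single genes.

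The labels were checked against binding at defining markers of each tissue. Among the villus markers, Lct was bound in 0 colon and 3 villus lists, Apoa4 in 0 and 4, Fabp1 in 0 and 3, Alpi in 1 and 3, Gata4 in 1 and 2, and Sis (sucrase-isomaltase) in 0 of all 8. Among the colon markers, Car1 was bound in 4 colon and 0 villus lists, Aqp8 and Muc2 in 3 and 0, Slc26a3 in 1 and 0, and Car4 in 1 and 1. VDR binding is not expression, so these counts check the labels in part. Lists for other cells held 1 gene called to a side, Cd79b of B cells (villus-side; 15.0, 7.83 and 12.1 in villus 1, 2 and 4). Markers of myeloid cells (4 of 15 genes bound), of smooth muscle, fibroblasts and endothelium (5 of 16), of Paneth cells (2 of 14) and of enteroendocrine cells (1 of 19) had 0 colon-side and 0 villus-side genes.

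Colon-side sites lay between genes more often than villus-side or shared sites. A promoter, taken as 1.0 kb on either side of a TSS, held 9.18% of colon-side summits (95% Wilson interval 7.48 to 11.2%), 24.1% of villus-side summits (19.7 to 29.0%) and 37.8% of shared summits (34.8 to 41.0%), against 25.1% of all sites. Intergenic sequence held 51.5% (48.3 to 54.7%), 31.6% and 35.1%. The median distance to a TSS was 15.6 kb for colon-side, 7.75 kb for villus-side and 5.43 kb for shared sites. The villus-side promoter share was not stable, because it was 6.38% among the 94 sites of 4 villus and 0 colon lists and 17.0% with 1500 peaks per list, where the colon-side share was 14.5%. These intervals cover counting error over sites only, not the spread between mice.

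Over all sites of a list, no region share passed the test between the tissues. The promoter share was 23.1, 22.4, 25.7 and 27.8% in colon and 30.0, 38.7, 18.7 and 31.7% in villus, and the colon values lay within the villus range. The means were 24.8 ± 2.50% and 29.8 ± 8.28% (SD, n = 4 each; two-sided exact permutation p = 0.314, adjusted p = 0.543 over 4 region classes). For the exon, intron and intergenic shares the test gave similar values (exact permutation p from 0.171 to 0.543). GC content at the summits was 51.7, 51.4, 52.4 and 53.6% in colon and 59.1, 59.5, 50.0 and 53.9% in villus (exact permutation p = 0.257). Villus 3 alone lay below every colon sample, and without it the difference was −5.25 percentage points (exact permutation p = 0.0286, the smallest that 3 samples against 4 allow).

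**Figure D4:**
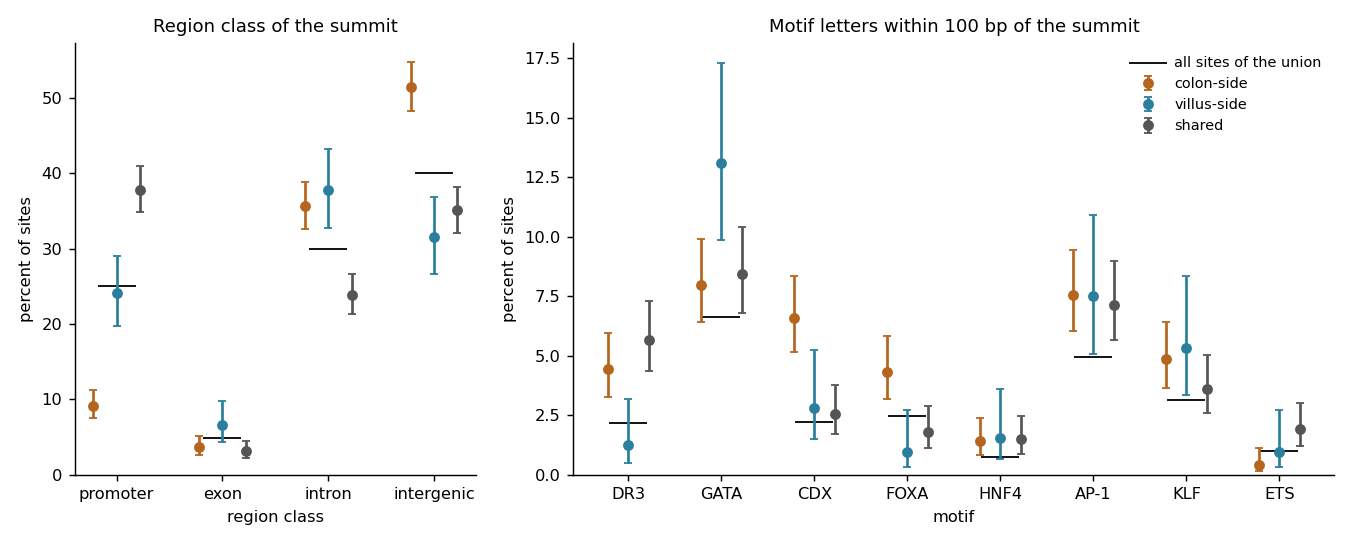
Percent of colon-side, villus-side and shared sites by region of the summit (left) and with motif letters within 100 bp of the summit (right), as points with 95% Wilson intervals, and black lines for all 20677 sites. Promoters hold 9.18, 24.1 and 37.8% of the classes, the GATA letters are at 7.99, 13.1 and 8.42%, and the CDX letters at 6.59, 2.81 and 2.56%.

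The DR3 letters were at 4.43% of colon-side (41 of 926), 1.25% of villus-side (4 of 320) and 5.65% of shared sites (53 of 938), against 2.16% of all sites. With 1500 peaks per list they were at 5.19% of colon-side and 5.07% of villus-side sites, whereas at −log10 q of 5 or more they were at 4.67% and 1.80%, among sites of 4 against 0 lists at 3.27% and 2.13%, and without both sparsest lists at 4.89% and 0.719%. The GATA letters were at 13.1% of villus-side (9.86 to 17.3%), 7.99% of colon-side and 8.42% of shared sites, and outside promoters at 16.5%, 8.44% and 10.6%. With 1500 peaks per list the GATA letters were at 13.0% of villus-side and 5.88% of colon-side sites. The CDX letters were at 6.59% of colon-side (5.16 to 8.37%), 2.81% of villus-side and 2.56% of shared sites, and at 5.19% and 2.54% with 1500 peaks. The forkhead letters (TGTTTAC, FOXA) were at 4.32%, 0.938% and 1.81%, against 2.48% of all sites. The AP-1 letters (TGACTCA) were at 7.56%, 7.50% and 7.14% of colon-side, villus-side and shared sites, against 4.95% of all sites.

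As a share of all sites of a sample, no motif passed. GATA was at 8.33, 8.47, 7.65 and 7.08% in colon and at 5.37, 5.87, 14.4 and 10.3% in villus, so the villus samples lay on both sides of colon (exact permutation p = 0.657, adjusted p = 1.00 over 10 motifs). CDX was at 3.66, 4.76, 2.92 and 3.02% in colon and at 1.20, 1.57, 3.53 and 2.46% in villus (exact permutation p = 0.114, adjusted p = 0.571). Only villus 3 fell inside the colon range. DR3 was at 3.05 to 3.53% in colon and at 1.72, 2.78, 7.31 and 3.83% in villus, the highest again in villus 3, the list with the fewest sites. For HNF4 (CAAAGTCCA, 0.754% of all sites), KLF (CCACACCC, 3.13%), ETS (CCGGAAGT, 0.991%), HNF1 (0.179%) and NRF1 (0.213%), exact permutation p-values ran from 0.0857 (KLF) to 1.00.

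Accessible chromatin at the classes was read from the ATAC-seq lists. The share of villus-side sites that overlapped an ATAC-seq peak was 25.9, 27.5 and 29.4% in the 3 colon samples and 66.2, 65.6 and 50.3% in the 3 villus samples, with no overlap between the tissues. The means were 27.6 ± 1.72% and 60.7 ± 9.03% (SD, n = 3 each; two-sided exact permutation p = 0.100, the smallest that 3 against 3 allow, adjusted p = 0.300). At colon-side sites the shares were 26.1, 33.9 and 41.4% in colon and 30.6, 27.0 and 17.9% in villus, which overlapped (exact permutation p = 0.300). Shared sites were open more often, at 55.8, 64.1 and 69.0% in colon and 80.3, 77.1 and 62.6% in villus (exact permutation p = 0.300). Villus ATAC-seq lists held more peaks (43090 to 51037, against 21269 to 32853 in colon). With the 20000 strongest peaks of each list, the villus-side difference shrank from −33.1 to −11.1 percentage points, the colon-side difference was 12.9, and that of shared sites turned from −10.4 to 6.01.

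Site by site, 33.8% of villus-side sites were open in 2 or 3 villus and 0 colon ATAC-seq samples, while 11.4% of colon-side sites were open in 2 or 3 colon and 0 villus samples. For 49.8% of colon-side sites no ATAC-seq peak was called in any of the 6 samples, against 25.3% of villus-side and 14% of shared sites. Outside promoters, 54.3% of villus-side sites were open in 2 or 3 villus samples and 12.3% in 2 or 3 colon samples. The 12 strongest villus-side sites had no ATAC-seq peak in any of the 3 colon samples, and 8 were open in 2 or 3 villus samples, with Maf, Myo15, Snx10 and Treml4 as the others. Of the 12 strongest colon-side sites, 5 were open in 2 or 3 colon samples (Tagap, Zp1, Nr3c2, Fam129b and Rorb) and 0 in 2 or 3 villus samples.

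**Figure D5:**
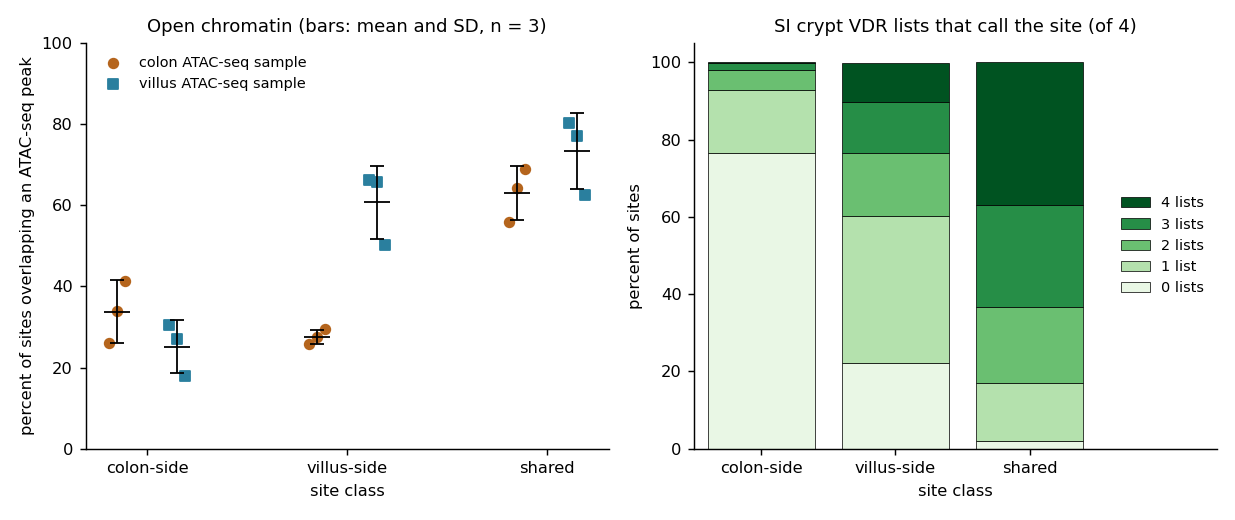
Left, percent of sites of each class that overlapped an ATAC-seq peak in each colon (circles) and villus (squares) sample, with bars for mean and SD (n = 3). Right, percent of sites called in 0 to 4 of the 4 SI crypt VDR lists; 76.6% of colon-side, 22.2% of villus-side and 2.13% of shared sites were called in 0 of them.

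The SI crypt lists, which the classes did not use, called villus-side sites more often than colon-side sites. At least 1 of 4 crypt lists called 77.8% of villus-side, 23.4% of colon-side and 97.9% of shared sites, and at least 2 called 39.7%, 7.34% and 82.9%. Crypt sample 1 held 12945 sites, against 948 to 2206 in the others. Without it, the shares in 2 or more lists were 26.2%, 4.43% and 66.8%. Of the 12 strongest villus-side sites, 11 were called in all 4 crypt lists and that of Arid1b in 3, whereas 8 of the 12 strongest colon-side sites were called in 0 crypt lists and none in all 4.

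At 267 sites called in all 8 lists, the strength of binding could be tested. The log2 fold enrichments were centered on the median of each list, since the list medians ranged from 7.16 to 14.7 in colon and from 9.9 to 19.4 in villus, and compared with limma. After Benjamini-Hochberg adjustment at 0.05, 7 sites were higher in colon (2.62%) and 5 were lower (1.87%), and at an unadjusted p of 0.05 there were 29 and 24. The intronic site of Vegfc, a growth factor of lymphatic vessels, had 10.3, 21.3, 11.8 and 18.6 in colon and 11.2, 10.2, 7.18 and 7.51 in villus. All colon values but that of sample 1 exceeded all villus values, and the centered difference was 1.07 (SE 0.19, limma adjusted p = 0.0156). The promoter site of Neu1, the lysosomal sialidase, had 4.07, 3.69, 4.03 and 3.39 in colon and 17.8, 13.9, 11.2 and 8.76 in villus. The ranges did not overlap, and the centered difference was −1.39 (SE 0.27, limma adjusted p = 0.0156).

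A site 322 kb from Bmp2, a ligand made by differentiated epithelium and the stroma beneath it, had 6.47, 9.28, 5.93 and 9.81 in colon and 27.1, 22.7, 13.2 and 17.5 in villus, again without overlap (−1.01, SE 0.20, limma adjusted p = 0.0156). The other sites lower in colon were nearest to Capzb (an actin capping subunit), Morn3 and Sdcbp2, with centered differences of −0.90, −0.86 and −1.0. Those higher in colon were nearest to Ctnna1 (α-catenin of adherens junctions, 0.90), Nhlrc3 (0.87), Xab2 (0.92), 4930408O17Rik (0.99), Dip2b (0.85) and Acsl5 (a fatty acyl-CoA synthetase, 0.88), with limma adjusted p-values from 0.0251 to 0.0427 over these 9. Ctnna1 also had a villus-side site at −66.7 kb, with 16.4, 10.8, 12.7 and 17.7 in villus.

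The calls of strength depended on scaling and on single lists. Without centering, which moves the median difference by −0.36, limma called 0 sites higher in colon and 1 lower, Neu1. Leaving out colon 2, colon 4 or villus 1 left 0 calls in both directions, leaving out colon 3 gave 1 higher and 0 lower, and leaving out villus 2 gave 6 higher and 2 lower. Without villus 3 there were 3 higher and 4 lower, and without villus 4 there were 16 higher and 13 lower.

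The pooled lists, made by the authors from merged reads of each side, held 22882 colon and 18078 villus peaks. Of these, 62.1% in colon (95% Wilson interval 61.5 to 62.7%) and 52.9% in villus (52.2 to 53.6%) had no overlap in the other list. Strong peaks overlapped more often than weak ones, from 75.1% in the strongest of 10 equal bins to 15.0% in the weakest for colon and from 86.8% to 17.2% for villus. Peaks without overlap lay in promoters less often than those with overlap, 13.7% against 39.2% in colon and 23.2% against 39.5% in villus. With the 18000 strongest peaks of each list the shares without overlap were 56.6% and 57.2%. The pooled lists give no replicate error.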

How the data were processed

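Peak lists of VDR ChIP-seq (4 Colon, 4 Villi and, for comparison, 4 Crypt samples) and ATAC-seq (3 Colon and 3 Villi samples), with the pooled lists, were used. The authors aligned reads to mm9 with Bowtie2 2.2.6 and called peaks with MACS2 2.1.0.20150731 (q value 0.05, no control) on each sample and on merged alignments. ChIP-seq calls used read-pair fragments, and ATAC-seq calls used shifted, extended tags. The deposited lists give −log10 q and fold enrichment, a ratio of pileup to local background in the same sample. Read counts are not among them, which leaves no basis for a count model. The deposited differential sets of the authors' own comparison were not used. Sequenced fragments numbered 12125236 to 17731640 in colon and 10588783 to 17970894 in villus, with 9127982 to 14716273 and 4858968 to 12479695 after the duplicate filter.

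Peaks of single lists in the regions that the authors left out of their pooled lists were dropped (5.04 to 16.1% in colon and 5.29 to 20.7% in villus), with 37 mitochondrial peaks. Genes came from the mm9 annotation (22225 protein-coding genes), and 563 of 565 genes of 22 lists were matched, 558 by symbol and 5 by an older symbol. Motifs were fixed letters on both strands of the 200 bp at the summit. Shares per sample were compared with two-sided exact permutation tests and Benjamini-Hochberg adjustment within each family. Strength was fitted with limma 3.58.1. That fit, and the merging of peaks into classed sites, were tested on simulated data. Classes of sites and genes are presence counts, with no test. Python 3.11.15, scipy 1.17.1, pandas 2.3.3 and R 4.3.3 were used.

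The named genes were the members of the lists, the nearest genes of the 12 strongest sites of each class, genes nearest to 3 or more sites of a class, the 10 sites of smallest p in each direction of the strength fit, and genes the study named. Members, lists and rules were chosen with earlier results of these data known. The mice are not tied to samples, and the tissues came from the same group of mice, so p-values measure only the spread between samples. The alternatives were other thresholds, equal numbers of peaks, other distances and overlap rules, other scalings, blocking on the replicate number, and omission of each sample in turn.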

Additional observations from a re-analysis of the deposited data

Results flagged for a closer look

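Of 134 groups of 4 values examined for a single sample far from the others, 2 stood apart, where chance alone sets apart about 1 in 20. The FOXA letters were at 3.91% of the sites of colon replicate 2, against 2.59 to 2.64% in the other 3 colon samples. The colon-side site 176 kb upstream of Atp2b1 had a fold enrichment of 6.10 in colon replicate 1, against 12.1 to 12.6 in the others. Outside the nuclear genome, the 8 lists held 37 mitochondrial peaks, from 1 to 10 in a list, which entered no comparison.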

How the results depend on the processing

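Depth of calling and the number of lists a site needed set most of the counts. In the order colon-side, villus-side and shared, at most 1500 peaks per list gave 289, 276 and 388 sites and 107, 116 and 232 genes. The added limit of 1200 peaks, chosen after seeing the data, gave 230, 245 and 330 sites and 83, 102 and 195 genes, and 4 lists against 0 gave 153, 94 and 267 sites. Requiring absence from the other pooled list left 178 villus-side sites. A TSS within 2 kb gave 110 colon-side and 416 shared genes, and one within 50 kb gave 393 and 1025. With 1 sample left out, a site or gene of its side needed 3 of 3 lists. Leaving out 1 sample gave 171 to 1103, 97 to 510 and 429 to 908 sites, and 55 to 362, 28 to 242 and 296 to 615 genes. It left differences in log2 number of sites of −0.388 to 0.695 and in GC content of −5.25 to −2.09 percentage points (exact permutation p = 0.0286 without villus 3).

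For the strength of shared sites, leaving out 1 sample gave 0 to 16 higher and 0 to 13 lower in colon by limma. Without centering there were 0 and 1, quantile normalization gave 10 lower and limma's trend 11 lower. Of 278 values of the 20 named sites, 277 kept their direction; that of Golm1 turned to 0.29 with log2 of −log10 q, and 77 of 166 values of called sites lost the call. For accessible chromatin, pooled ATAC-seq lists gave −42.2 percentage points at villus-side sites, and 20000 peaks turned the difference at shared sites to 6.01. Without crypt replicate 1, shares in 2 or more crypt lists were 4.43, 26.2 and 66.8%. Pooled peaks without overlap were 56.6 and 57.2% with 18000 peaks, 58.0 and 48.5% at −log10 q of 5 or more, and 69.0 and 60.7% with 200 bp at centers (colon, then villus).

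Some small differences of shares, none past the test, changed sign. At −log10 q of 5 or more, HNF1 was −0.0376, AP-1 −0.572 and NRF1 0.0160 percentage points. With 1500 peaks intron was −0.623 and AP-1 −1.07, and with 1200 peaks exon was −0.104, intron −0.917, HNF1 −0.0417 and AP-1 −1.08. Within 400 bp HNF4 was 0.114, and outside promoters AP-1 was −0.450, ETS 0.0429 and NRF1 0.0284. Leaving out 1 sample gave DR3 −1.31 to 0.557, GATA −2.31 to 0.692, HNF4 −0.261 to 0.0828, AP-1 −0.592 to 0.620 and NRF1 −0.0992 to 0.0554. The cause was not tested.

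Same-numbered samples did not deviate together (correlations of 0.00, −0.03, 0.04 and −0.15 over the 267 sites). Samples with different numbers gave −0.21 to 0.23. Such weak correlations cannot tell whether samples share a mouse, so pairing stays unknown. With the replicate block, limma called 8 sites higher and 7 lower in colon. The difference in GC content kept −3.37 percentage points. A two-sided exact sign-flip test of the differences between same-numbered samples gave p = 0.375, where 4 pairs cannot give less than 0.125.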
